A study of Mus musculus with 11 samples.

Results

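The genes described here are the chaperones of the endoplasmic reticulum (ER) and the signalling genes of the unfolded protein response, measured in the S3 segment of the mouse kidney proximal tubule. They were chosen by name from a list of 42 gene symbols, and 41 of these had a probe set annotated with that gene alone, out of 22180 genes measured in this way. Pdia4 was the member without a value, because its probe set is annotated with Mir704 as well. Ero1l and Ero1lb were matched through their present symbols Ero1a and Ero1b. Where a gene had several probe sets, the one brightest on average was kept.

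The series compares 6 arrays labelled WT with 5 arrays labelled THP -/-, the genotype lacking Tamm-Horsfall protein (uromodulin, encoded by Umod), all from 129/SvEv mice and all labelled as kidney S3 proximal tubule. For each array 2 ng of total RNA was labelled for Affymetrix arrays, and signals are on a log2 scale. Batch 1 holds 5 wild-type and 3 knockout arrays, and batch 2 holds 1 wild-type and 2 knockout arrays. The sources used here do not give age, how the deletion was made or whether an array stands for 1 mouse, so the p-values speak only of the spread among arrays, which may be technical. The comparison asks how S3 tubules differ when uromodulin, a protein made mainly in the thick ascending limb, is missing.

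Proteins that enter the ER are folded there by chaperones, joined by disulfide bonds and sorted, and misfolded ones are sent back to the cytosol for degradation. When unfolded proteins build up, the sensors ATF6, IRE1 and PERK act from the ER membrane. ATF6 is cut in the Golgi and turns on chaperone genes, IRE1 splices the mRNA of the transcription factor XBP1, which turns on folding and degradation genes, and PERK phosphorylates the translation factor eIF2alpha, which slows protein synthesis while ATF4 and CHOP (Ddit3) are made. Proximal tubule cells carry many secretory and membrane proteins through the ER, and this response is well known in tubule injury. Splicing of Xbp1 and phosphorylation of PERK, IRE1 or eIF2alpha are not read by these signals, which give the amount of RNA alone.

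Array medians lay between 3.85 and 4.01, and arrays correlated with each other at 0.901 to 0.955. Umod, the targeted gene, read 5.27 to 6.74 in wild type and 3.68 to 5.27 in knockout, with 4 of the 5 knockout arrays below every wild-type array. The fitted log2 change was -1.52 ± 0.24 (SE), with a limma p of 6.82e-05 before and 0.281 after adjustment. Exact permutation of genotype within batches gave p = 0.00595, the smallest it allows. Umod was lower within batch 1 (-1.41) and within batch 2 (-1.83). The sources used here do not say whether its probe lies in the deleted part. All 7 measured S3 markers had a fitted change above 0 and all 8 markers of the S1 and S2 segments one below 0. The mean log2 signal of the S3 markers was 7.98 to 9.27 in wild type and 8.71 to 9.80 in knockout, highest in knockout replicate 3, and that of the S1 and S2 markers 4.96 to 5.96 and 4.52 to 5.61. Knockout replicate 4 stood apart in the markers of other tubule segments: the thick ascending limb list (7 genes, Umod among them, and the other 6 with a change above 0) read 6.79 there against 4.83 to 5.68 in wild type and 5.0 to 5.44 in the other knockout arrays, and the distal tubule and collecting duct list (8 genes, 6 above 0) read 6.63 against 4.63 to 5.30 and 4.39 to 5.26. In such bulk samples a larger share of a cell type and more RNA per cell of it cannot be told apart.

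Most ER genes had slightly higher signal in knockout tubules, and none passed the adjusted test. Of the 41 measured members 34 had a fitted change above 0 and 7 below, with a median log2 change of 0.16. Over all genes 53.4% were above 0 with a median of 0.01. Of the brighter genes, those above the median probe, to which 40 of the members belong, 59.6% were above 0 with a median of 0.05. No member passed an adjusted p of 0.05 in limma with Benjamini-Hochberg adjustment over all 41345 probes, of which 0 (0%) passed and 2546 were at an unadjusted p under 0.05. The members' adjusted p ran from 0.758 to 0.992. At an unadjusted limma p under 0.05 there were 4 members higher in knockout (Dnajb11, Calr, Hspa13 and Syvn1) and 0 lower, beside 3.64% and 2% of all genes. The change was above 0 within both batches for 25 of the 41, beside 29.1% of all genes and 35.4% of the brighter ones.

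The median log2 change was 0.20 for the ATF6 arm (12 of 13 members above 0), 0.24 for the IRE1 arm (5 of 5), 0.04 for the PERK arm (5 of 8), 0.11 for disulfide folding (5 of 7) and 0.13 for ER-associated degradation (7 of 8). Differences between arms were not tested. With single arrays left out, the range of the PERK arm's median lay below those of the ATF6 arm, the IRE1 arm and disulfide folding. The other ranges overlapped. These ranges show the weight of single arrays and are not intervals of uncertainty. They were 0.16 to 0.27 for the ATF6 arm, 0.13 to 0.51 for the IRE1 arm, -0.02 to 0.05 for the PERK arm, 0.07 to 0.19 for disulfide folding and 0.01 to 0.23 for ER-associated degradation. For 37 of the 41 genes the 95% interval of the change includes 0.

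**Figure D1:**
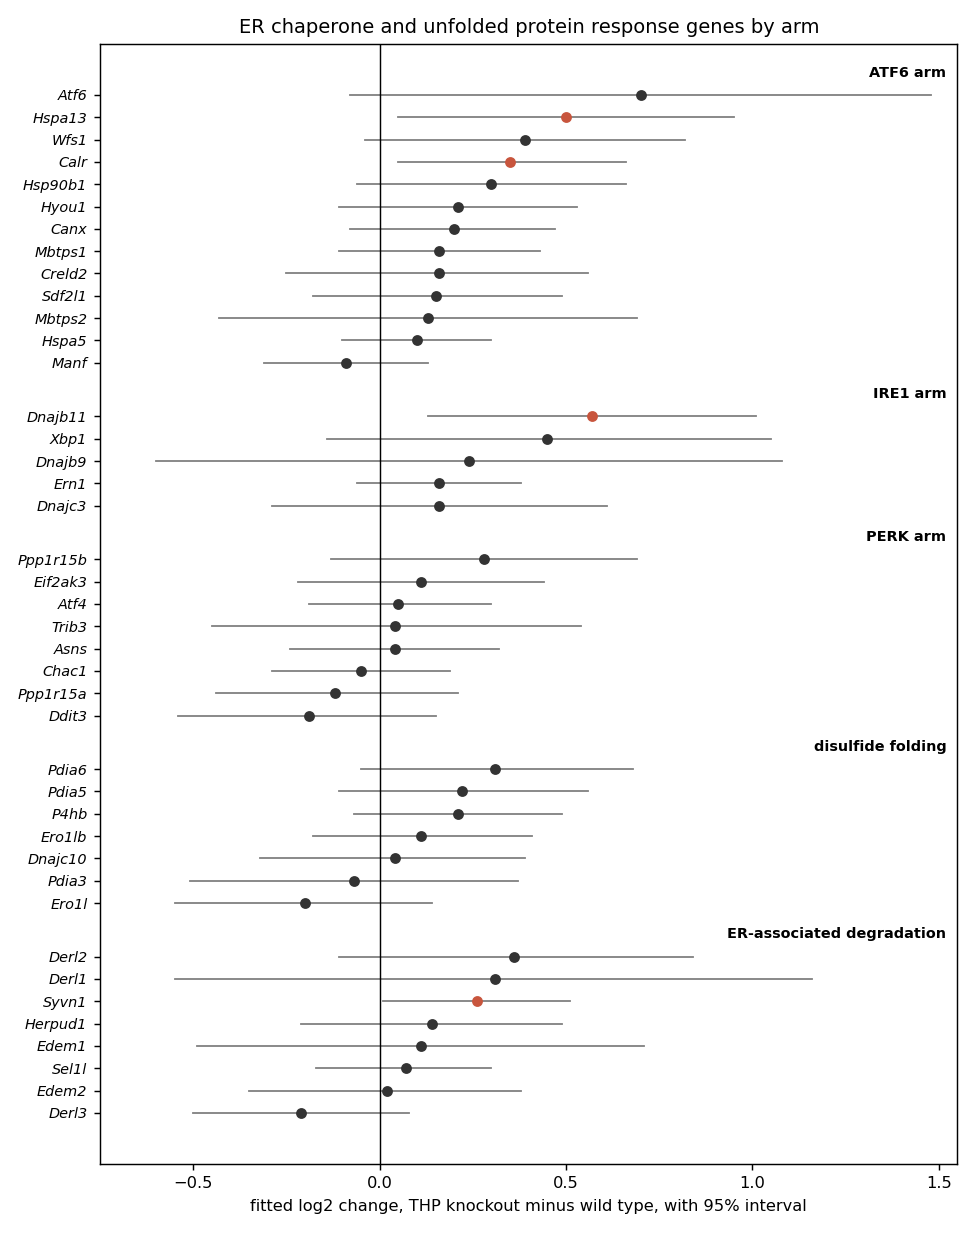
Fitted log2 change of each measured member (points; horizontal axis, THP knockout minus wild type) with its 95% interval, grouped by arm, red where the unadjusted limma p is under 0.05 and none past the adjusted threshold. Intervals of 37 of 41 genes cross 0, and the points of the PERK arm lie on both sides of it.

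The higher ER gene signals lay mostly on knockout replicates 3 and 4, which were also the highest arrays for bright genes in general. Of the 41 members, 25 had their highest signal of all 11 arrays on one of these arrays (11 on replicate 3 and 14 on replicate 4), as had 22.4% of all genes and 31.5% of the brighter ones. Each of them held 23 members above every wild-type array, against 6, 9 and 10 on knockout replicates 1, 2 and 5, and 15 members were above every wild-type array on both. Of all genes, 16.7%, 15.5%, 17.8%, 21.1% and 14.6% were above every wild-type array on knockout replicates 1 to 5, and 10.2% on both replicates 3 and 4. Of the brighter genes these shares were 19.6%, 13.1%, 23.9%, 30.6% and 14.7%, and 15.9% on both. The mean log2 signal over the members was 6.31 and 6.36 on these arrays, 5.94, 6.01 and 6.08 on the other knockout arrays, and 5.80 to 6.06 in wild type. Those are also the arrays highest in S3 markers (replicate 3, at 9.80, followed by replicate 4, at 9.52) and in markers of the thick ascending limb and collecting duct (replicate 4). The part of segment make-up in the ER gene signals was not tested. Without knockout replicate 3 the count of members above 0 was 27 with a median change of 0.11 and 1 member at an unadjusted limma p under 0.05, and without replicate 4 it was 33 with a median of 0.13 and 3 such members. The number at an unadjusted p under 0.05 was also 2 without wild-type replicate 4, 2 without wild-type replicate 6 and 7 without knockout replicate 1.

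**Figure D2:**
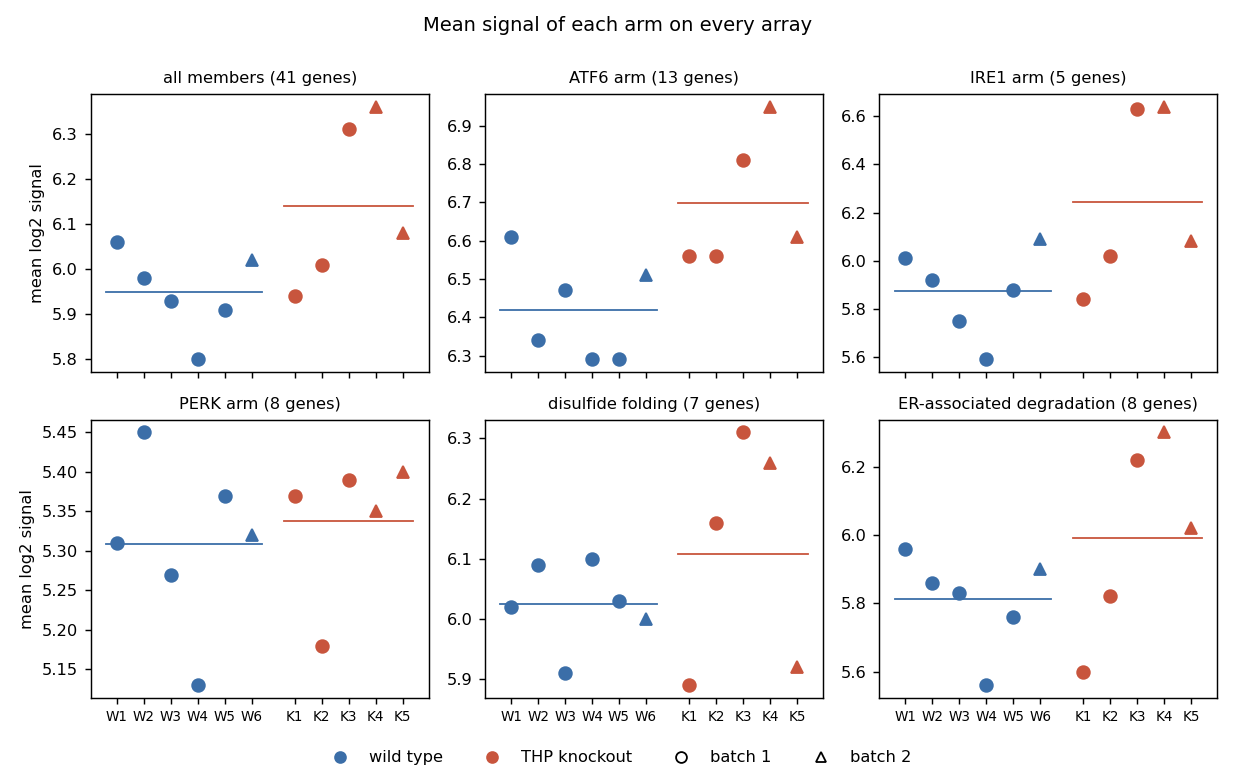
Mean log2 signal (vertical axis, its own range in each panel) of all members and of each arm on every array (W, wild type; K, THP knockout; circles, batch 1; triangles, batch 2), with lines at the group means. K3 and K4 are the highest arrays in all panels but that of the PERK arm, where the groups span 5.13 to 5.45 and 5.18 to 5.40.

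Many ER chaperone genes carry the ER stress response element (ERSE) in their promoters, bound by cleaved ATF6 and by XBP1 together with NF-Y. The element was searched as CCAAT, any 9 bases, then CCACG, on both strands of the RefSeq promoter table of GRCm38.p6 (250 bases before to 50 after each gene's start). Promoters were present for 36 of the 42 members, and 10 of these (27.8%) held at least 1 exact match, against 39 of all 32851 promoters (0.119%). By arm, a match was found for 5 of 9 genes of the ATF6 arm, 1 of 5 of the IRE1 arm, 0 of 7 of the PERK arm, 2 of 8 of disulfide folding and 2 of 7 of ER-associated degradation. Atf6, Hspa13, Hyou1, Manf, Ppp1r15b and Derl1 are the other 6.

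The matches are shown because they mark which members hold the element and how the 9 free bases and the flanks vary. The fixed bases are alike because the search required them. Each is given with 15 bases on either side, turned so that it reads forward, with the fixed bases in capitals:
Hspa5, chr2:34772010-34772058, + strand: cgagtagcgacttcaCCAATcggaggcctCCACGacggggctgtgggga
Hsp90b1, chr10:86705623-86705671, - strand: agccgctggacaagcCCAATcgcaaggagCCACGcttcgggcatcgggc
Hsp90b1, chr10:86705518-86705566, + strand: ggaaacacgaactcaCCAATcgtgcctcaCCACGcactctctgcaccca
Calr, chr8:84847060-84847108, + strand: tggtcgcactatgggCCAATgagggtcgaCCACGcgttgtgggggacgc
Canx, chr11:50325785-50325833, - strand: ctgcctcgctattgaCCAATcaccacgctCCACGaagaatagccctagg
Creld2, chr15:88819505-88819553, - strand: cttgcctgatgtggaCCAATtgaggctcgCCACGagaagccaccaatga
Dnajc3, chr14:118937812-118937860, + strand: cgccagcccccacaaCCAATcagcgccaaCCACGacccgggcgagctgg
Pdia6, chr12:17266476-17266524, + strand: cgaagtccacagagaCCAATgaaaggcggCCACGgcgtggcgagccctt
Ero1lb, chr13:12565667-12565715, - strand: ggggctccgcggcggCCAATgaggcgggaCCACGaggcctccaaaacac
Syvn1, chr19:6046517-6046565, + strand: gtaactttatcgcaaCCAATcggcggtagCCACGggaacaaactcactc
Derl3, chr10:75893227-75893275, - strand: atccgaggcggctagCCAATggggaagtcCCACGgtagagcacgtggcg

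The elements began 44 to 212 bases before the start of the gene, with that of Hspa5 65 bases and that of Syvn1 44 bases before it. Of the 10 members with a match 9 had a fitted change above 0 and 1 (Derl3) below, with a median of 0.18. The 25 measured members with a promoter but no match had 20 above and 5 below, with a median of 0.11. Of the 19 measured genes outside the list whose promoter held the same letters, 10 were above 0 and 9 below, with a median of 0.01. These counts describe letters in a window and do not show binding.

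A related element, ERSE-II (ATTGG, any 1 base, CCACG, both strands), was found in the promoters of Dnajb11 and Herpud1 among the 36 members (5.56%) and in 0.0365% of all promoters. Both are shown with 9 bases on either side, the fixed bases in capitals, since Dnajb11 had the smallest p of all members and Herpud1 is a classical stress target:
Dnajb11, chr16:22857843-22857871, + strand: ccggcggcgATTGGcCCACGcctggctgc
Herpud1, chr8:94386368-94386396, + strand: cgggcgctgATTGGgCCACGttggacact
The core of the ATF4 element, TGATGCAA on either strand, was present in Chac1 and Herpud1 (5.56% of the 36 members, against 0.895% of all promoters). The XBP1 element core TGACGTGG was in 0 of the 36 and in 0.676% of all promoters, which says only that these letters are not in the windows searched.

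The ATF6 arm holds the sensor, the proteases that cut it and its chaperone targets. Atf6 (Entrez 226641) had the largest fitted change of the members with all arrays in. It read 4.80, 5.89 and 6.44 (lowest, median and highest of 6) in wild type and 6.35, 5.55, 7.17, 6.78 and 6.52 on knockout replicates 1 to 5. Knockout replicates 3, 4 and 5 were above every wild-type array and replicate 2 was below the wild-type median. The log2 change was 0.70 ± 0.36 (SE), and its 95% interval reached from -0.08 to 1.48. The adjusted p was 0.823 in limma, and the exact permutation of genotype within batches gave p = 0.119. Within batch 1 it was 0.73 and within batch 2 it was 0.62. Without knockout replicate 3 it was 0.42, below the 0.45 of Dnajb11 in the same fit.

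Mbtps1 and Mbtps2 encode the site-1 and site-2 proteases that release the active part of ATF6, and Wfs1 encodes wolframin, an ER membrane protein that restrains ATF6. Their log2 changes were 0.16 ± 0.12, 0.13 ± 0.25 and 0.39 ± 0.19 (SE). Wfs1 read 4.90, 5.59 and 5.99 (lowest, median, highest) in wild type and 5.99, 5.60, 5.86, 6.18 and 5.82 in knockout. The lowest wild-type value is that of replicate 6, which alone stands for wild type in batch 2, and the batches gave changes of 1.10 (batch 2) and 0.14 (batch 1), and the limma adjusted p was 0.823. With the replicate number as a block, a fit that leaves out that array, the change of Wfs1 was -0.03. The genotype term of that fit rests on replicates 1 to 3 alone, all of batch 1. Same-numbered arrays 4 and 5 lie in different batches, so the batch term takes up their difference.

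Hspa5 (Entrez 14828) encodes BiP, the main Hsp70 chaperone of the ER, whose release from the sensors starts the response. Its SD over arrays was small, 0.0534 in wild type and 0.0853 in knockout. Wild-type arrays read 7.72, 7.83 and 7.84 (lowest, median, highest), and knockout arrays read 7.81, 8.03, 7.85, 7.85 and 7.88. Knockout replicates 2 to 5 lay above the highest wild-type array, replicates 3 and 4 only just. A change of 0.10 ± 0.09 (SE) was fitted, with bounds of -0.10 and 0.30. The adjusted p was 0.882 in limma and the exact permutation p 0.0655. The change was 0.08 within batch 1, 0.15 within batch 2 and 0.06 without knockout replicate 2. After quantile normalization it was -0.01, so the direction of Hspa5 is not settled.

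Calr (Entrez 12317) encodes calreticulin, a lectin chaperone of the ER lumen that holds glycoproteins until they are folded. It read 7.01, 7.18 and 7.32 (lowest, median, highest) in wild type and 7.31, 7.78, 7.39, 7.92 and 7.38 in knockout. All knockout arrays but replicate 1 were above every wild-type array. This gave a log2 change of 0.35 ± 0.14 (SE), a 1.28-fold difference, with a limma adjusted p of 0.769. It was 0.36 within batch 1 and 0.33 within batch 2, and its exact permutation p of 0.0119 was the smallest of the members, where 168 arrangements allow no p under 0.00595. Its membrane-bound relative Canx, calnexin, was at 0.20 ± 0.13.

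Hspa13 encodes an Hsp70-related ATPase of the ER. Its wild-type signals were 3.66, 4.11 and 4.57 (lowest, median, highest) and its knockout signals 4.41, 4.41, 5.10, 4.85 and 4.56. Knockout replicates 3 and 4 alone were above every wild-type array. The log2 change was 0.50 ± 0.21 (SE), 0.63 within batch 1 and 0.13 within batch 2, with p = 0.781 after limma's adjustment and an exact permutation p of 0.0476. Without knockout replicate 3 it was 0.31.

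The remaining chaperones of this arm ranged from -0.09 to 0.30. Hsp90b1, the ER form of Hsp90, was at 0.30 ± 0.16 (SE) and Hyou1, which exchanges nucleotide on BiP, at 0.21 ± 0.15. The stress-induced ER proteins Creld2, Sdf2l1 and Manf were at 0.16, 0.15 and -0.09. Sdf2l1 was higher within batch 1 (0.31) and lower within batch 2 (-0.29). The mean over the 13 genes of the arm was 6.29 to 6.61 in wild type and 6.56 to 6.95 in knockout, so that the groups overlapped.

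**Figure D3:**
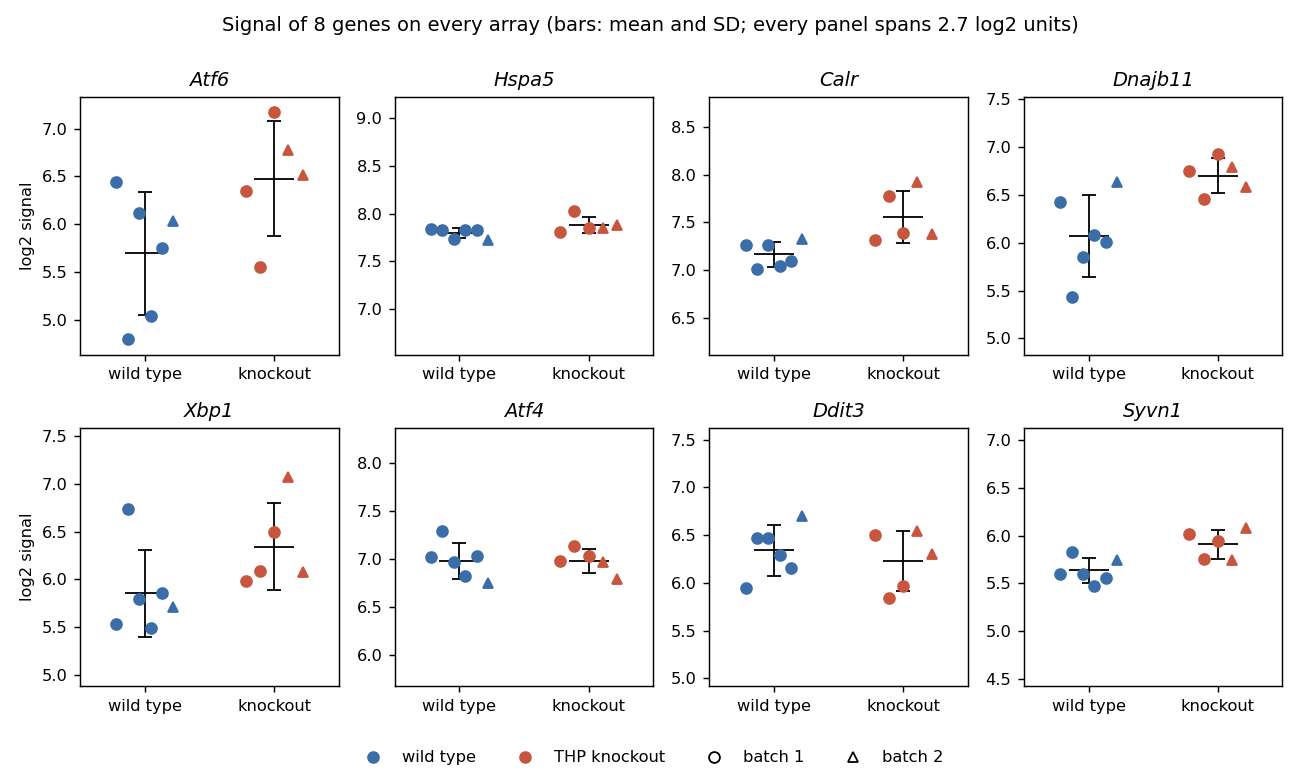
Log2 signal (vertical axis; every panel spans 2.7 log2 units) of 8 genes on each array, with the mean and SD of each group (circles, batch 1; triangles, batch 2). The groups overlap in all 8 panels; Hspa5 and Atf4 vary little, while Atf6 and Xbp1 spread widely in both groups.

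In the IRE1 arm the sensor had the smallest difference, together with Dnajc3, and the co-chaperone Dnajb11 had the smallest p of all members. Ern1 (IRE1 itself; Entrez 78943) read 5.21, 5.48 and 5.52 (lowest, median, highest) in wild type and 5.55, 5.51, 5.67, 5.51 and 5.36 in knockout. Knockout replicates 2, 4 and 5 lay inside the wild-type range. The difference was 0.16 ± 0.10 (SE) on the log2 scale, with p = 0.843 after limma's adjustment and an exact permutation p of 0.0417. With the replicate number as a block it was 0.07.

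Xbp1 (Entrez 22433) had 5.49, 5.76 and 6.74 (lowest, median, highest) in wild type and 5.98, 6.09, 6.50, 7.07 and 6.08 in knockout. The highest wild-type value, on replicate 2, lay above every knockout array but replicate 4, and the next wild-type array was at 5.86. Fitted over all arrays the log2 change was 0.45 ± 0.27 (SE), 0.31 within batch 1 and 0.87 within batch 2, with a limma adjusted p of 0.834. Without that wild-type array it was 0.62 at an unadjusted limma p of 0.0135, and with the replicate number as a block 0.17. These signals sum the spliced and unspliced forms as far as the probe set covers both, and do not show how much was spliced.

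Dnajb11 (Entrez 67838) encodes a J-domain protein that hands unfolded proteins to BiP. It read 5.43, 6.05 and 6.64 (lowest, median, highest) in wild type and 6.75, 6.46, 6.93, 6.79 and 6.58 in knockout. Knockout replicates 1, 3 and 4 were above every wild-type array, and the other knockout arrays were below 1 wild-type array each, replicate 6. The fitted change was 0.57 ± 0.20 (SE), a 1.48-fold difference, with p = 0.758 after limma's adjustment and an exact permutation p of 0.0298. It was 0.75 within batch 1 and 0.05 within batch 2, where the single wild-type array was the highest of its group.

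Dnajb9, a J protein that holds IRE1 inactive, was the least settled of this arm, at 0.24 ± 0.38 (SE), with 6.79 and 6.42 on knockout replicates 3 and 4, 4.58, 4.97 and 5.42 on the others and 4.60 to 5.95 in wild type. Dnajc3, a J protein also known as an inhibitor of PERK, was at 0.16 ± 0.20.

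The PERK arm showed the smallest shift, with 5 of its 8 members above 0, 3 below and none at an unadjusted limma p under 0.05 (smallest 0.16). It was also the dimmest arm, with a mean log2 signal of 5.13 to 5.45 in wild type and 5.18 to 5.40 in knockout. The part of brightness in its smaller shift was not tested. Eif2ak3 (PERK; Entrez 13666) read 4.21, 4.56 and 4.68 (lowest, median, highest) in wild type and 4.52, 4.27, 4.79, 5.16 and 4.56 in knockout, with replicates 3 and 4 above the wild-type range. Its log2 change was 0.11 ± 0.15 (SE; limma adjusted p = 0.924), 0.03 and 0.04 without knockout replicates 3 and 4, 0.07 without wild-type replicate 5, 0.20 and 0.17 without knockout replicates 2 and 5, and -0.03 with the replicate number as a block.

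Atf4 (Entrez 11911), the transcription factor of this arm, whose control lies mostly in its translation, read 6.75, 7.0 and 7.29 (lowest, median, highest) in wild type and 6.98, 7.14, 7.03, 6.97 and 6.79 in knockout. All knockout arrays lay inside the wild-type range. A log2 change of 0.05 ± 0.11 (SE) was fitted, with bounds of -0.19 and 0.30 and a limma adjusted p of 0.955. Leaving out single arrays gave 0.02 (wild-type replicate 4 or 6) to 0.10 (wild-type replicate 2). With quantile normalization it was -0.05, and with the replicate number as a block -0.04, so no direction can be given.

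Ddit3 (Entrez 13198), which encodes the pro-apoptotic factor CHOP, was at 5.95, 6.38 and 6.70 (lowest, median, highest) in wild type and at 6.50, 5.84, 5.97, 6.54 and 6.30 in knockout. Knockout replicate 2 alone was below the wild-type range and none was above it. On the log2 scale the difference was -0.19 ± 0.16 (SE), with bounds of -0.54 and 0.15 and a limma adjusted p of 0.867. It was negative within both batches (-0.16 and -0.28). It was -0.11 without knockout replicate 2. When knockout replicate 1 was omitted it was -0.34, at an unadjusted limma p of 0.0415.

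Ppp1r15a and Ppp1r15b encode the inducible and the constitutive subunit that guide the phosphatase of eIF2alpha. Ppp1r15a read 4.67, 4.76 and 5.22 (lowest, median, highest) in wild type and 5.0, 4.36, 4.72, 4.75 and 4.55 in knockout, a log2 change of -0.12 ± 0.15 (SE). Ppp1r15b read 6.08, 6.80 and 7.08 in wild type and 6.85, 7.0, 7.15, 7.07 and 6.86 in knockout, a change of 0.28 ± 0.19. Neither difference was beyond the spread between arrays, and that of Ppp1r15a has no settled direction, being 0.0045 without knockout replicate 2, -0.21 when knockout replicate 1 and -0.05 when wild-type replicate 2 was omitted. Ppp1r15b was at 0.16 without wild-type replicate 4 and 0.15 with the replicate number as a block.

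Targets of ATF4 and CHOP lay close to 0. The pseudokinase Trib3 was at 0.04 ± 0.22 (SE), the glutathione-cleaving enzyme Chac1 at -0.05 ± 0.11 and asparagine synthetase Asns at 0.04 ± 0.13. Their intervals do not exclude moderate changes: over the 8 genes of the arm the widest bounds were -0.54 and 0.69.

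Disulfide bonds are formed by protein disulfide isomerases, which the oxidases Ero1l and Ero1lb recharge. Pdia6 (Entrez 71853) had 6.26, 6.58 and 6.83 (lowest, median, highest) in wild type and 6.42, 7.13, 7.11, 7.0 and 6.71 in knockout, with replicates 2, 3 and 4 above every wild-type array. Its log2 change was 0.31 ± 0.16 (SE), with a limma adjusted p of 0.825, and 0.30 and 0.37 within the batches. It ran from 0.24 to 0.48 with single arrays left out and from 0.22 to 0.34 with other processing settings. The 0.48 came without knockout replicate 1, at an unadjusted limma p of 0.00801. The founding isomerase P4hb read 8.75, 9.10 and 9.19 in wild type and 9.09, 9.38, 9.14, 9.57 and 9.19 in knockout, a change of 0.21 ± 0.13 with replicates 2 and 4 above the wild-type range.

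Pdia5 had 4.84, 5.16 and 5.37 (lowest, median, highest) in wild type and 5.20, 5.16, 5.80, 5.33 and 5.04 in knockout. Only knockout replicate 3 was above the wild-type range, and the change was 0.22 ± 0.15 (SE; limma adjusted p = 0.85), and 0.08 without that array. Pdia3, which works with the lectin chaperones on glycoproteins, was at -0.07 ± 0.20, with knockout replicates 1 (6.31), 5 (6.81) and 3 (7.57) outside a narrow wild-type range of 6.91 to 7.17. The ER reductase Dnajc10 was at 0.04 ± 0.16.

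Fitted differences of the oxidases had opposite signs. Ero1l was at -0.20 ± 0.16 (SE), -0.35 within batch 1 and 0.20 within batch 2, and its dimmer probe set gave -0.04. Ero1lb was at 0.11 ± 0.13. None of these differences exceeded the spread between arrays.

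ER-associated degradation removes misfolded proteins through a membrane channel built around the ubiquitin ligase Syvn1 (HRD1) and its partner Sel1l. Syvn1 (Entrez 74126) read 5.47, 5.60 and 5.83 (lowest, median, highest) in wild type and 6.02, 5.76, 5.94, 5.75 and 6.08 in knockout. Knockout replicates 1, 3 and 5 were above every wild-type array, and the other knockout arrays were above the wild-type median, so its pattern over the arrays differed from that of the mean of the list. Its log2 change was 0.26 ± 0.11 (SE), a 1.20-fold difference, 0.29 within batch 1 and 0.17 within batch 2, with p = 0.799 after limma's adjustment and an exact permutation p of 0.0417. Sel1l was at 0.07 ± 0.11.

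The derlins are membrane proteins of the same channel. Derl2 (Entrez 116891) read 3.47, 4.30 and 4.44 (lowest, median, highest) in wild type and 4.20, 4.48, 4.84, 4.98 and 4.29 in knockout, a log2 change of 0.36 ± 0.22 (SE), and its dimmer probe set gave 0.16. Derl1 was at 0.31 ± 0.39, with 7.49 and 7.37 on knockout replicates 3 and 4, 5.20, 5.91 and 6.05 on the others and 5.42 to 6.53 in wild type. Derl3, known for its place in secretory cells, read 4.01, 4.17 and 4.49 in wild type and 3.81, 4.16, 3.84, 4.10 and 4.27 in knockout, a change of -0.21 ± 0.13 with replicates 1 and 3 below the wild-type range.

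Edem1 and Edem2, which trim mannose from misfolded glycoproteins to mark them for removal, were at 0.11 ± 0.27 and 0.02 ± 0.17 (SE). The dimmer probe set of Edem1 gave 0.13. Herpud1, a stress-induced organiser of the channel, was at 0.14 ± 0.16, 0.04 within batch 1 and 0.44 within batch 2. With the replicate number as a block, which compares replicates 1 to 3 alone, the median change of the ER-associated degradation genes was -0.05. Without knockout replicate 3 it was 0.01, so this group has no settled direction.

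Other genes of the ER and of stress signalling were read from 6 further lists of 142 genes, of which 136 were measured. Of these 106 had a fitted change above 0 and 30 below, while 53.4% of all genes and 59.6% of the brighter ones were above 0. At an unadjusted limma p under 0.05 there were 12 (all 12 above 0, beside 3.64% of all genes), and 0 passed the adjusted threshold. Genes that move proteins into the ER were above 0 for 20 of 23 (median 0.20), with the signal recognition particle subunit Srp72 at 0.43 ± 0.18 (SE), the particle's receptor Srpr at 0.31 ± 0.15, the channel subunit Sec61a1 at 0.33 ± 0.17 and Sec63 at 0.50 ± 0.29. Genes of N-glycosylation and glycan trimming were above 0 for 24 of 27 (median 0.19), with the glucosidase subunit Prkcsh at 0.30 ± 0.11, the dolichol phosphate mannose synthase Dpm1 at 0.30 ± 0.14, Alg1 at 0.33 ± 0.19 and the oligosaccharyltransferase subunit Stt3b at 0.27 ± 0.15. The highest arrays of both lists were again knockout replicates 3 and 4 (6.50 and 6.56, against 5.75 to 6.22 in wild type, for transport into the ER).

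Among further ER folding factors 21 of 26 were above 0 (median 0.16), beside 53.4% of all genes. Sil1, a nucleotide exchange factor of BiP, was at 0.54 ± 0.19 (SE), its wild-type mean being 6.15 ± 0.239 (SD, n = 6) and its knockout mean 6.69 ± 0.377 (SD, n = 5). It was the one gene of these 6 lists in which every knockout array was above every wild-type array, which held for 0 of the 41 members and for 0.433% of all genes. The separation was narrow, with the highest wild-type array at 6.34 and knockout replicates 1 and 5 at 6.35. The limma adjusted p of Sil1 was 0.761. Tmx2, a thioredoxin-like membrane protein, was at 0.47 ± 0.20, the prolyl isomerase Ppib at 0.35 ± 0.15 and Fkbp11 at 0.35 ± 0.20.

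Further genes of ER-associated degradation were above 0 for 15 of 18 (median 0.28), beside 53.4% of all genes, with 5 at an unadjusted limma p under 0.05. The smallest p were those of Vimp (Selenos), a selenoprotein that ties the channel to the ATPase p97, at 0.41 ± 0.16 (SE), the glycan-reading lectin Os9 at 0.51 ± 0.20, Ubxn4 at 0.35 ± 0.14 and the mannosidase Man1b1 at 0.36 ± 0.15. This list held the largest median of the 5 arms and 6 further lists. At an unadjusted limma p under 0.05 were 5 of its 18 genes (27.8%), beside 5.64% of all genes. None of them passed after adjustment.

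ATF4 target genes lay near the background: 15 of 27 (55.6%) were above 0 with a median of 0.05, and 0 were at an unadjusted limma p under 0.05. Those with the smallest p were the cystine carrier Slc7a11, at 0.23 ± 0.12 (SE) between dim signals of 2.33 and 2.57, and Gars, Nars and Shmt2 at 0.42 ± 0.23, 0.27 ± 0.15 and 0.27 ± 0.17. Slc7a11 lay under the lower quartiles of the arrays, which were 2.85 to 3.03, and was not shown to be above background. Further sensors and kinases were above 0 for 11 of 15 (median 0.09), with the haem-regulated kinase of eIF2alpha, Eif2ak1, at 0.53 ± 0.18, Rtcb, the ligase that joins spliced Xbp1, at 0.56 ± 0.24, the ER membrane protein Tmbim6 at 0.26 ± 0.16 and Atf6b, the relative of Atf6, at 0.17 ± 0.11.

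**Figure D4:**
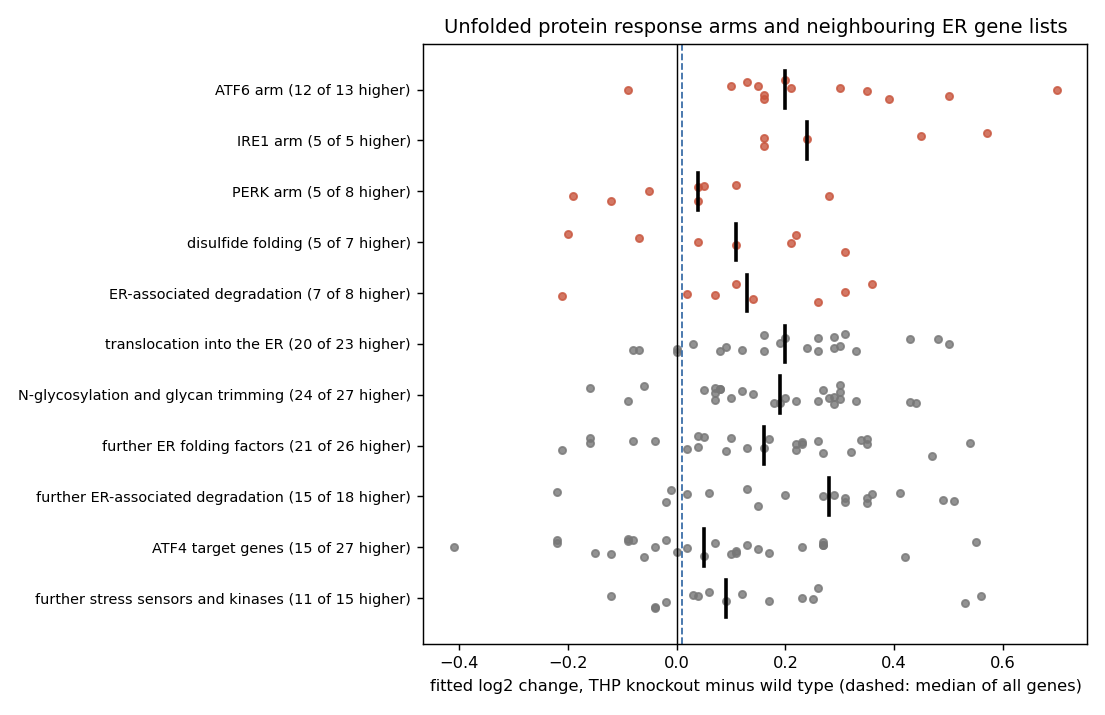
Fitted log2 change (horizontal axis, THP knockout minus wild type) of each gene in the 5 arms (red) and in 6 neighbouring lists (grey), with list medians as black bars and the median of all genes as a dashed line. Lists of ER machinery have medians from 0.11 to 0.28. The PERK arm (0.04) and ATF4 target genes (0.05) lie nearer the median of all genes (0.01). These 2 lists are also dimmer, with mean log2 signals of 5.13 to 5.45 and 4.84 to 5.17 over the arrays. The ER machinery lists read 5.47 to 6.95, and the part of brightness in the contrast was not tested.

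Plasma cells are rich in ER, and their markers were read beside those of other kidney cells. The 7 measured plasma cell markers averaged 3.65 to 4.04 in wild type and 3.87 to 3.98 in knockout, 4 with a change above 0 and 3 below. The antibody joining chain Jchain had means of 2.69 and 2.92. Lower quartiles of the arrays were 2.85 to 3.03, so Jchain was not shown to be above background. Pou2af1 had the largest change of the list, -0.34 ± 0.14 (SE), and was lower within both batches (-0.28 and -0.51). Exact permutation of genotype within batches gave p = 0.0595 for Pou2af1 and 0.0417 for Sdc1, which was at 0.13 ± 0.10. Fibroblast and pericyte markers (8 genes, 5 above 0) averaged 3.56 to 3.70 and 3.56 to 3.85, endothelial markers (8 genes, 8 above 0) 4.38 to 4.60 and 4.40 to 4.84, and macrophage markers (7 genes, 5 above 0) 4.12 to 4.48 and 4.39 to 4.57. Thin limb markers (6 genes, 2 above 0) averaged 4.14 to 4.56 and 4.06 to 4.61, and podocyte markers (5 genes, 1 above 0) 3.78 to 4.01 and 3.79 to 3.96. The ranges of the genotypes overlapped in each of these lists. The part of these cells in the ER gene signals was not tested.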

How the data were processed

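Total RNA of kidney S3 proximal tubules was extracted with a kit for small samples and biotin-labelled for Affymetrix arrays, per the labels' protocols. The authors deposited log2 signals per probe set, made with Partek 6.6 and RMA, per the submitters' processing notes. RMA makes the distributions of the arrays more alike, so a shift common to most genes can be understated. The deposited distributions still differed, with array medians from 3.85 to 4.01. Quantile normalization of the deposited signals gave the members a median change of 0.10 with 30 above 0, against 0.16 and 34 in the main fit. Centring on array medians gave 0.18 and 34. The sources used here do not give any filter or batch correction before deposit, nor the build of the probe annotation.

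Of 41345 probes 23521 carried 1 gene symbol, 1814 several and 16010 none. A linear model with terms for genotype and batch was fitted to every probe (limma 3.58.1, run under R 4.3.3, with moderated two-sided tests on 8 residual degrees of freedom), with Benjamini-Hochberg adjustment over all probes at 0.05. The fit was tested on simulated data with independent noise and with changes larger than that of any member. Such a run checks that the fit works and does not speak of power for changes of the size seen here. Single genes were also tested with a two-sided exact permutation of genotype within batches (168 arrangements). Lists are described by counts and medians, without a test. Standard errors and intervals come from limma.

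Members and lists were chosen with earlier results of these data known. Every knockout value and the lowest, median and highest wild-type value are given for the sensors, Hspa5, Xbp1, Atf4, Ddit3 and the 3 members with the smallest p of each arm, and up to 4 genes with the smallest p are named from each other list. Array values of Dnajb9, Derl1 and Pdia3 were chosen for the text after they were seen. Other settings tried were a model with no batch term, a random batch effect, a fit to batch 1 only, blocks by replicate number, removal of probes under the median, quantile normalization or centring on array medians, weighted arrays, a trended robust prior, averaging over a gene's probe sets, and leaving out each array. Figures came from matplotlib 3.10.9 (Python 3.11.15). Protein sequences were not analysed here.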

Additional observations from a re-analysis of the deposited data

Results flagged for a closer look

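In 82 groups of arrays (41 genes in each genotype) 4 had 1 array far from the others of its genotype, where chance gives about 1 in 20 groups. The Xbp1 signal of wild-type replicate 2 was 6.74, with the next wild-type array at 5.86. Wild-type replicate 2 was also high for Ppp1r15a, at 5.22 with the next at 4.77. Chac1 was at 5.16 on wild-type replicate 5, with the next at 4.80. Sel1l was at 4.81 on wild-type replicate 3, with the next lowest at 5.06. All 4 lie in wild type.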

How the results depend on the processing

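No member passed the adjusted threshold under any of the 10 other settings or without any of the 11 arrays in turn. Over the arrays left out in turn, the count of members above 0 ran from 27 to 35 and their median change from 0.11 to 0.18, and over the other settings from 28 to 34 and from 0.07 to 0.19. The medians of the ATF6 arm, the IRE1 arm and disulfide folding stayed above 0 in each of these, with the lowest and highest IRE1 values when knockout replicates 3 (0.13) and 1 (0.51) were omitted. The median of the PERK arm ran from -0.02 (without knockout replicate 5) to 0.05 with arrays left out and was -0.01 with the replicate block; without knockout replicate 3 it was -0.0024. The median of ER-associated degradation was -0.05 with the replicate block and 0.01 to 0.23 with arrays left out. The same block gave -0.03 for Eif2ak3, -0.04 for Atf4 and -0.03 for Wfs1, and 1 member at an unadjusted p under 0.05. It left 0 probes past the threshold, with a genotype term that rests on replicates 1 to 3 alone. Same-numbered arrays did not deviate together (correlations of their deviations from -0.181 to 0.012). Batch was not removed in that check, and it cannot show whether same-numbered samples were paired. Quantile normalization gave -0.01 for Hspa5, -0.05 for Atf4 and 2 members at an unadjusted p under 0.05. With batch as a random block Atf4 was at -0.0035. Without knockout replicate 2, Ppp1r15a was at 0.0045; with arrays left out it ran from -0.21 to that value. Probes past the threshold numbered 3 in batch 1 alone and 0 to 11 with arrays left out (11 when knockout replicate 5 was omitted, 3 for wild-type replicate 6, 2 for knockout replicate 3 and 1 for wild-type replicate 1). Without wild-type replicate 6, batch 2 holds knockout arrays only, so that fit too compares the genotypes within batch 1 alone. Probes at an unadjusted p under 0.05 numbered 2546, from 2096 to 3016 with arrays left out, and 1480 among the 20671 above the median probe, where fewer were tested. The cause of the other differences was not tested. The number of arrays, 11, limits the precision.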
